A study of Mus musculus with 2 samples.

Results

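The homeobox genes of the Hoxb, Hoxc and Hoxd clusters, with Hoxa13, Evx1 and Evx2, were examined for peaks of DNA methylation in white fat. These 31 genes lie in 4 windows of the mouse genome (build mm9): chr11:96050000-96235000 with 10 Hoxb genes, chr15:102740000-102875000 with 9 Hoxc genes, chr2:74485000-74610000 with Evx2 and 9 Hoxd genes, and chr6:52205000-52270000 with Hoxa13 and Evx1. A peak was counted in a window when it overlapped the window by at least 1 bp. Of 342211 deposited peaks, 66 met this rule, 34 of 166438 in the library of mice on regular chow (STD) and 32 of 175773 in that of mice on a high-fat diet (HFD).

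The tissue was epididymal white adipose tissue, a visceral depot that lies along the epididymis. The mice were males of C57BL/6J, an inbred strain often used in studies of diet-induced obesity. From 4 weeks of age they were kept for 5 months on regular chow or on a high-fat diet that draws 60% of its energy from fat. The assay was MeDIP-seq, which uses an antibody to 5-methylcytosine to pull down methylated DNA fragments for sequencing, so that a peak marks a stretch where captured fragments pile up. Each diet is represented by 1 library, and the number of mice behind each is not in the labels. Differences between diets cannot be set against a spread between replicates, and p-values are not given. All intervals are exact 95% intervals that treat peaks as independent and cover counting error only. The tissue label could not be checked against markers, because the lists hold positions and no expression values. Sequencing depth is unknown, so the absence of a peak is not evidence of unmethylated DNA.

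Hox genes encode homeodomain transcription factors that give cells along the body axis their positional identity. In each cluster their order on the chromosome follows the order in which they act along that axis, from anterior genes such as Hoxb1 and Hoxd1 to posterior genes such as Hoxb13 and Hoxd13. Evx1 and Evx2, relatives of the fly gene even-skipped, lie beyond the posterior ends of the Hoxa and Hoxd clusters. The clusters are rich in CpG islands, which are largely free of DNA methylation in many tissues and are bound by Polycomb complexes where the genes are silent. Fat depots keep distinct sets of active Hox genes in adult life, and Hoxc8 and Hoxc9 are known as markers of white fat.

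The lists hold no gene names, and the RefSeq gene table used here follows GRCm38, a later build, so no peak was placed at a single gene. The table was used for gene order only. It matched all 31 genes, and the outer genes of each window spanned 174 kb (Hoxb), 116 kb (Hoxc), 112 kb (Evx2 to Hoxd1) and 59.5 kb (Hoxa13 to Evx1), less than the window length of 185, 135, 125 and 65 kb in each case. Along the chromosome, the lower end of the Hoxb, Hoxc and Hoxd windows carries the posterior genes (Hoxb13, Hoxc13, and Evx2 next to Hoxd13). The upper end carries the anterior ones (Hoxb1, Hoxc4 and Hoxd1). In the fourth window the order is the reverse: Hoxa13 at the lower end adjoins the rest of the Hoxa cluster, and Evx1 at the upper end is on the posterior side.

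The DNA before these genes differs widely in its number of CpG dinucleotides, the sites that are methylated in most mammalian tissues. RefSeq promoter sequences (GRCm38.p6) were at hand for 16 of the 31 genes, so a summary over the whole list is void. They covered all 10 genes of the Hoxd-Evx2 window and both genes of the Hoxa13-Evx1 window. Hoxb2, Hoxb3, Hoxb5, Hoxb6, Hoxb7, Hoxb9, Hoxb13, Hoxc5, Hoxc6, Hoxc8, Hoxc9, Hoxc10, Hoxc11, Hoxc12 and Hoxc13 had no entry. The members with the most and the fewest CpG in the 250 bases before the start are shown to make this range visible, 5′ to 3′ on the strand of the gene, with each CpG in capitals. Hoxa13, a posterior gene of limb and urogenital development, had 35, and 97.4% of 32851 mouse promoters had as many or fewer. The other sequence belongs to one of the starts listed for Hoxd11, which also acts in limb development, and had 2. Of all promoters, 29.0% had as many or fewer.
Hoxa13: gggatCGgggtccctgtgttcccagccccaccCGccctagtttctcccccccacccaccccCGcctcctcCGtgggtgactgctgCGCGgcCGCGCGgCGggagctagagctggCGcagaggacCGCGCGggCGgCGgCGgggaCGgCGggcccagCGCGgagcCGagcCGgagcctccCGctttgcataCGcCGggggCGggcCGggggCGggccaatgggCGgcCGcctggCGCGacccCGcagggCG
Hoxd11: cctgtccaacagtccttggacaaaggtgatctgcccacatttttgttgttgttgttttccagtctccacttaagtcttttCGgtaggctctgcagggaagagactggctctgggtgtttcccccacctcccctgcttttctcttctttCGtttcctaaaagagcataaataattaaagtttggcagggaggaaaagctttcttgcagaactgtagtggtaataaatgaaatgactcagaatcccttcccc
In the Hoxd-Evx2 window the median over 11 promoters was 13 CpG, with 31 at Hoxd13, 24 at Hoxd1, 20 at Hoxd10 and at the other start of Hoxd11, 14 at Evx2 and 3 at Hoxd4. Evx1 had 10. The median of all mouse promoters was 6 (quartiles 2 and 16), and 8 of the 11 lay above it, against 46.3% of all promoters. Among the other Hoxa genes, of which 8 of 10 had an entry, the median was 13 over 9 promoters. Of the TALE cofactors, homeodomain proteins that bind DNA together with Hox proteins, only 5 of 9 had an entry, so their summary is void. These counts describe the sequence and were not joined to peaks, whose positions refer to the other build.

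The first question was how densely the Hox windows carry peaks, beside flanks of the same length on both sides. Pooled over 510 kb, the windows held 34 STD peaks, or 66.7 per Mb (46.2 to 93.2), and 32 HFD peaks, or 62.7 per Mb (42.9 to 88.6). Their flanks held 94 STD peaks, or 92.2 per Mb (74.5 to 113), and 92 HFD peaks, or 90.2 per Mb (72.7 to 111). The windows were thus sparser than their flanks in both libraries, with ratios of 0.723 (0.474 to 1.08) for STD and 0.696 (0.450 to 1.05) for HFD, but both intervals include a ratio of 1. Against all autosomes, at 68.5 STD and 72.4 HFD peaks per Mb, the ratios were 0.973 (0.674 to 1.36) and 0.867 (0.593 to 1.22). The windows were not distinguishable from the average autosome at this number of peaks. The pooled flanks lay above it, but those of the Hoxd-Evx2 window did not, with 52.0 STD and 60.0 HFD peaks per Mb. The densest were those of the Hoxb window, at 116 per Mb in both libraries, followed by Hoxa13-Evx1 (115 and 92.3) and Hoxc (85.2 and 81.5). The ratio to the flanks depended on the outer edges and on peak width. With windows shortened by 10 kb at each end it was 0.914 (STD) and 0.969 (HFD). In this change of edges and the next, flanks were redrawn from the new edges at the new length, so both sides of the ratio changed. With windows lengthened by 10 kb at each end it was 0.615 (0.411 to 0.901) and 0.589 (0.387 to 0.876), intervals that leave out 1. For peaks over 100 bp above the narrowest of their list it was 1.10 and 0.903.

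The Hoxc window was the sparsest of the 4, but its intervals overlap those of the others and no ratio between windows was computed. It held 4 STD peaks (29.6 per Mb, 8.07 to 75.9) and 5 HFD peaks (37.0 per Mb, 12.0 to 86.4), while its flanks held 23 and 22 over 270 kb in all. The ratios were 0.348 (0.0874 to 1.02) and 0.455 (0.134 to 1.23). Of all autosomal stretches of 135 kb, 34.6% held as few STD peaks or fewer and 38.3% as few HFD peaks or fewer, so such a count is common in the genome.

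The Hoxb window held the most peaks, 18 STD peaks (97.3 per Mb, 57.7 to 154) and 13 HFD peaks (70.3 per Mb, 37.4 to 120). Its flanks held 43 peaks in each library, and the ratios were 0.837 (0.454 to 1.48) and 0.605 (0.298 to 1.15). The Hoxd-Evx2 window held 9 peaks with either diet, at 72.0 per Mb (32.9 to 137), against 13 STD and 15 HFD peaks in its flanks. It was the window with ratios above 1, at 1.38 (0.522 to 3.50) and 1.20 (0.463 to 2.93). The Hoxa13-Evx1 window held 3 STD and 5 HFD peaks, with ratios of 0.400 (0.0742 to 1.41) and 0.833 (0.230 to 2.54). Its lower flank belongs to the rest of the Hoxa cluster, since Hoxa11 is the next gene, and held 8 and 7 peaks.

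**Figure D1:**
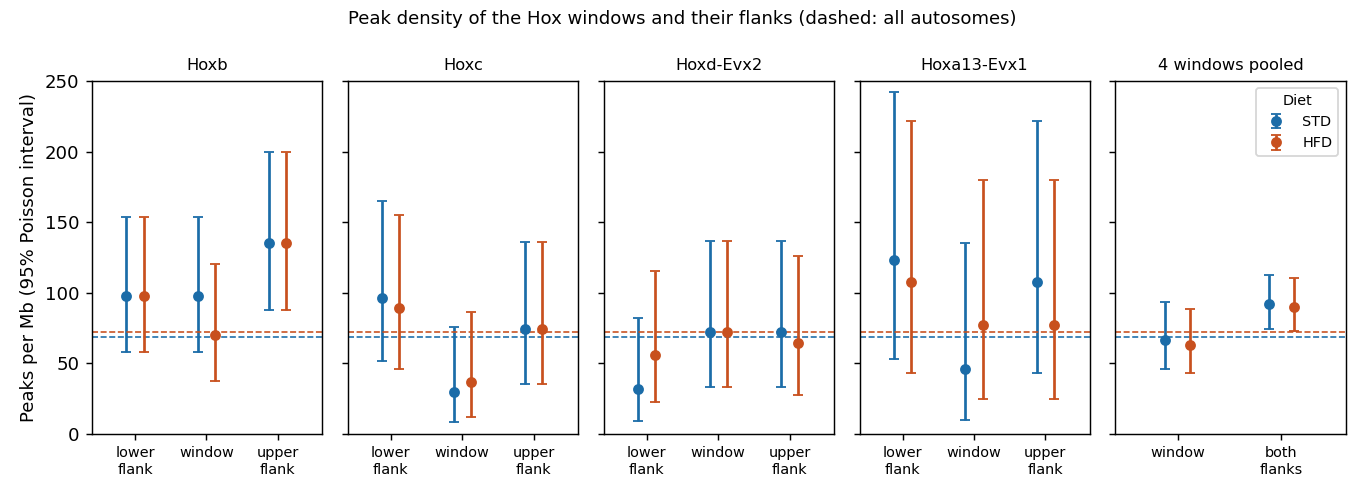
Peaks per Mb (vertical axis) in each window and its flanks for STD and HFD, with exact 95% Poisson intervals, and the autosomal density as dashed lines. The Hoxc window lies lowest at 29.6 and 37.0 per Mb, and the interval of each window overlaps those of its flanks. Overlap of separate intervals does not compare densities directly. Ratios to both flanks together, and for Hoxc also to each flank, are given in the text.

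Within the windows the peaks were not spread evenly, and the lower ends were empty in both libraries, which is the posterior end in the Hoxb, Hoxc and Hoxd-Evx2 windows but not in the Hoxa13-Evx1 window. The lower edge of every window lay in a stretch without a peak in either list. This stretch reached 23.6 kb into the Hoxb window from the Hoxb13 end, 37.6 kb into the Hoxc window from the Hoxc13 end, 25.3 kb into the Hoxd-Evx2 window from the Evx2 end and 18.3 kb into the fourth window from the Hoxa13 end. Counted with the part outside the windows, the stretches measured 49.3, 42.4, 59.9 and 34.0 kb. The median stretch between autosomal peaks was 5.38 kb, but long ones make up much of the genome. Stretches of at least 49.3 kb cover 27.1% of the autosomal span and those of at least 34.0 kb cover 36.9%. At the upper edges the stretch was 6.71 kb at Hoxb1, 38.9 kb at Hoxc4, 25.7 kb at Hoxd1 and 15.7 kb at Evx1. Emptiness was therefore not limited to the posterior ends, and at the edge on the Evx1 side, the posterior one of its window, the stretch was shorter than at Hoxa13. This pattern was noticed after the peaks had been seen.

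In all 4 windows and in both libraries, more peaks lay in the upper than in the lower part when each window was divided at its centre. In the Hoxb, Hoxc and Hoxd-Evx2 windows together, the upper part, toward the anterior genes, held 23 of 31 STD peaks (74.2%, 55.4 to 88.1) and 21 of 27 HFD peaks (77.8%, 57.7 to 91.4). In their flanks, each divided in the same way, it held 40 of 79 (50.6%, 39.1 to 62.1) and 39 of 80 (48.8%, 37.4 to 60.2). Most peaks are shared between the libraries, so the second count does not stand apart from the first, and this division too was chosen after the peaks had been seen. The Hoxb window had 14 STD and 10 HFD peaks in its upper part and 4 and 3 in its lower part. For Hoxd-Evx2 these numbers were 6 and 7 against 3 and 2. In the Hoxc window they were 3 and 4 against 1 and 1, and in the Hoxa13-Evx1 window 2 and 3 against 1 and 2. The counts are small and no interval was computed for single windows, so no direction is claimed for any one of them. Of the pooled upper-part peaks, the Hoxb window holds 14 of 23 with STD and 10 of 21 with HFD.

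**Figure D2:**
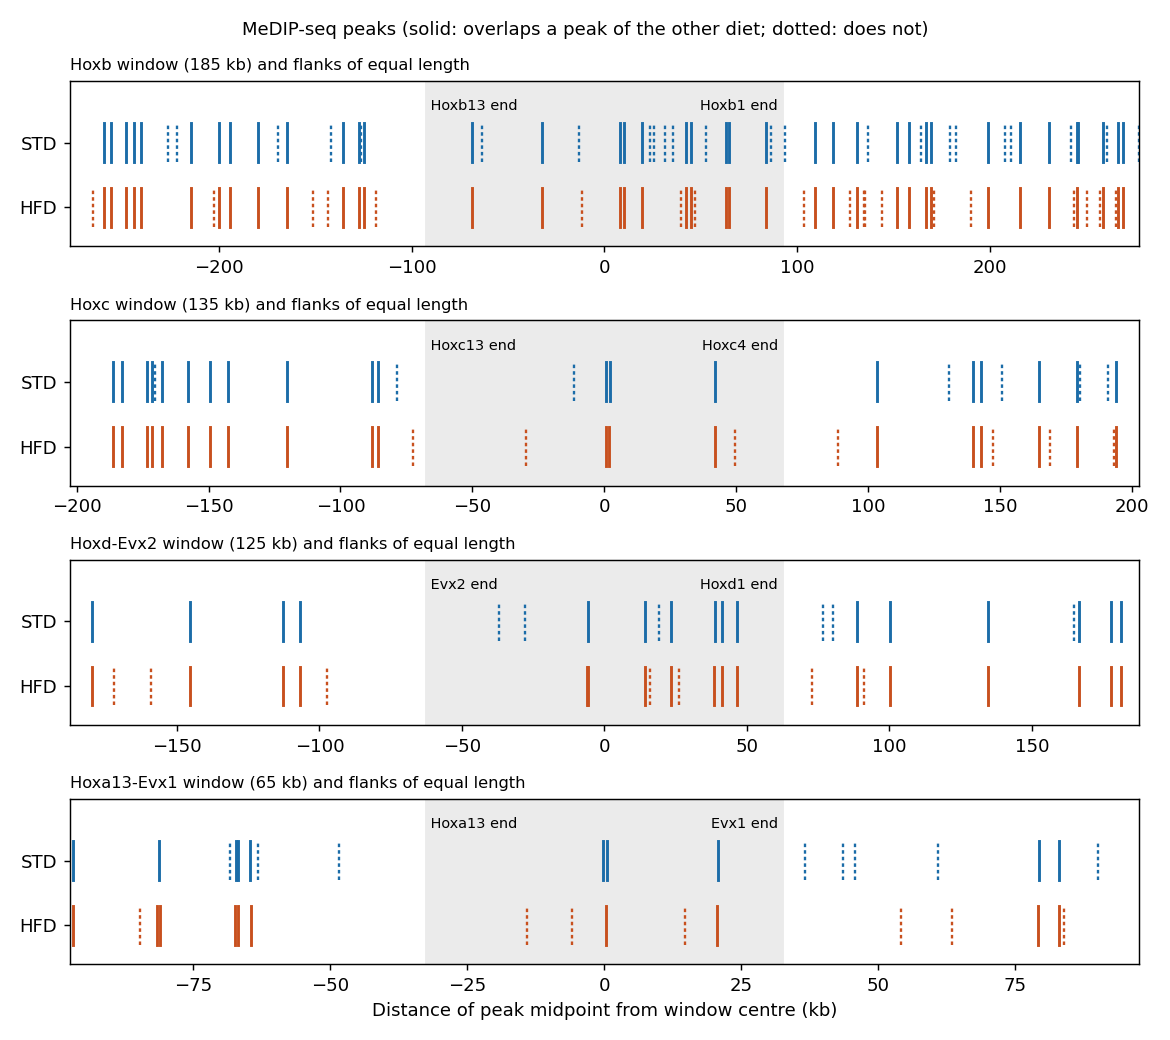
Position of each peak midpoint relative to the window centre (horizontal axis, kb) in the STD and HFD rows of each window (grey) and its flanks. Solid lines are peaks that overlap a peak of the other diet, dotted lines those that do not, and the lower end of each grey window holds no peak for 18.3 to 37.6 kb.

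The longest stretch without a peak inside a window differed between the libraries. In the Hoxd-Evx2 window it was 56.1 kb in the HFD list, from the window start to chr2:74541122, which is 44.9% of the window. In the STD list it was 25.3 kb, because peaks lay at chr2:74510280-74510727 (448 bp) and chr2:74519385-74519647 (263 bp, the narrowest width in that list). In the Hoxc window it was 55.8 kb with STD, from the window start, and 39.7 kb with HFD, between chr15:102809498 and chr15:102849187. An HFD peak of 262 bp at chr15:102777628-102777889 divided the STD stretch. The Hoxb window was empty for 31.0 kb (STD, chr11:96078838-96109862) and 35.8 kb (HFD, chr11:96074067-96109841), in overlapping places. In the Hoxa13-Evx1 window the stretches were 32.1 and 18.3 kb, both from the Hoxa13 end. In each window 1 or 2 peaks made the difference.

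The diets were compared next by asking which peaks of the Hox windows had a partner, meaning at least 1 bp of overlap with a peak of the other diet. Most peaks were present with both diets. An HFD partner was found for 22 of 34 STD peaks (64.7%, 46.5 to 80.3), and an STD partner for 22 of 32 HFD peaks (68.8%, 50.0 to 83.9). The 12 STD and 10 HFD peaks without a partner, 35.3% and 31.2%, stand beside 26.5% of all 166432 STD and 30.3% of all 175767 HFD peaks of the nuclear chromosomes. Both genome-wide values lie within the counting error of the windows. When the overlap had to reach 50% of both peaks, the windows' shares with a partner were 55.9% (STD, 37.9 to 72.8) and 59.4% (HFD, 40.6 to 76.3). Under this rule 29.2% of all STD and 32.9% of all HFD peaks had none, which counts the opposite outcome. Turned to shares with a partner, the genome-wide values lie above those of the windows but within both intervals. In the flanks the shares with a partner by 1 bp were 66.0% (STD, 55.5 to 75.4) and 67.4% (HFD, 56.8 to 76.8). The number of peaks was 0.941 times as high with HFD as with STD in the windows (0.562 to 1.57), 0.979 times in the flanks (0.726 to 1.32) and 1.06 times over all nuclear chromosomes (1.049 to 1.063). Joined into 43 separate loci, 21 were found with both diets (48.8%, 33.3 to 64.5), 12 with STD only and 10 with HFD only. The flanks were alike, with 61 of 123 loci found with both diets (49.6%, 40.5 to 58.8), 32 with STD only and 30 with HFD only.

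By cluster, 8 of 18 STD and 3 of 13 HFD peaks of the Hoxb window had no partner. The numbers were 1 of 4 and 2 of 5 for Hoxc, 3 of 9 and 2 of 9 for Hoxd-Evx2, and 0 of 3 and 3 of 5 for Hoxa13-Evx1. Beside the genome-wide shares of 26.5% and 30.3%, the Hoxb window leaned to STD and the Hoxa13-Evx1 window to HFD, but not beyond counting error. The intervals of the shares with a partner, 30.8% to 78.5% (Hoxb, STD) and 5.27% to 85.3% (Hoxa13-Evx1, HFD), include the genome-wide 73.5% and 69.7%. In the flanks the shares without a partner were 34.9% (STD) and 37.2% (HFD) for Hoxb, and 53.3% and 33.3% for Hoxa13-Evx1. The ratio of HFD to STD peaks was 0.722 (0.325 to 1.56) in the Hoxb window and 1.67 (0.324 to 10.7) in the Hoxa13-Evx1 window. Both intervals include the genome-wide 1.06.

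The STD-only peaks of the Hoxb window were grouped. A run of 4 followed each other within 12.4 kb at chr11:96166094-96178472, with widths of 418, 326, 402 and 287 bp and with no HFD peak between chr11:96162419 and chr11:96181886, a stretch of 19.5 kb. It lies in the upper part of the window, toward Hoxb1. The run was singled out after the peaks had been seen. Over all nuclear chromosomes there were 282 runs of at least 4 neighbouring STD-only loci and 523 of HFD-only loci, and this was the only one in the 4 windows. The other 4 STD-only peaks of Hoxb were 284, 289, 345 and 311 bp wide and lay apart from each other. The HFD-only peaks of Hoxb were 255 bp at chr11:96130871-96131125, 420 bp at chr11:96181887-96182306 and 351 bp at chr11:96189564-96189914. The first of these was 1.32 kb from an STD-only peak at chr11:96129260-96129548, so both lists hold a narrow peak there without touching.

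In the Hoxc window, which includes the white fat markers Hoxc8 and Hoxc9, the STD-only peak was chr15:102795835-102796222 (388 bp). The HFD-only peaks were chr15:102777628-102777889 (262 bp) and chr15:102856836-102857185 (350 bp). These 3 lay 11.8, 17.9 and 7.31 kb from the nearest peak of the other list, so none was a near miss of a partner.

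In the Hoxd-Evx2 window the STD-only peaks were the 448 and 263 bp peaks of the lower part named above and a further one at chr2:74566477-74566772 (296 bp). The HFD-only peaks were chr2:74563381-74563638 (258 bp) and chr2:74573495-74573769 (275 bp). The 448 bp peak, the broadest here without a partner, was 30.4 kb from any HFD peak. In the Hoxa13-Evx1 window the 3 HFD-only peaks were chr6:52223334-52223588 (255 bp), chr6:52231478-52231777 (300 bp) and chr6:52252108-52252374 (267 bp), and no peak was STD-only. The first of them had the narrowest width that occurs in the HFD list.

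Peaks without a partner were narrower than those with one. With STD the 12 ranged from 263 to 448 bp (median 318.5) and with HFD the 10 ranged from 255 to 420 bp (median 271). The peaks with a partner ranged from 283 to 1146 bp (median 414.5) and from 265 to 842 bp (median 428.5). Of the peaks of at least 400 bp, 3 of 14 with STD and 1 of 13 with HFD had no partner, where the genome-wide shares were 7.69% and 8.79%. The 4 are the peaks of 418 and 402 bp in the Hoxb run, the HFD peak of 420 bp in Hoxb, and the STD peak of 448 bp in Hoxd-Evx2. No interval was computed for these small counts, and the run was singled out after the peaks had been seen. Below 400 bp, 9 of 20 and 9 of 19 had none, beside genome-wide shares of 33.1% and 36.6%. The flanks are given as counts with a partner. At 400 bp or more these were 21 of 25 (STD) and 23 of 24 (HFD), beside 11 of 14 and 12 of 13 in the windows. Below 400 bp they were 41 of 69 and 39 of 68, beside 11 of 20 and 10 of 19 in the windows.

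The median peak of the Hox windows was broader than that of the flanks by 40.5 bp (STD) and 35 bp (HFD), but not beyond counting error. The median width was 363 bp (quartiles 301 and 467) with STD against 322.5 bp in the flanks and 332 bp over all nuclear peaks. With HFD it was 350.5 bp (276 and 480) against 315.5 and 321 bp. Counting error was taken for the window median only, with the flank median held fixed. The interval of the difference was then -8.50 to 126 bp with STD and -34.5 to 157 bp with HFD. Neither leaves out 0, although the error of the flank median is not included.

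At a few loci shared by both diets, the peak of one list was broad for that list, while its partner stood out less. Such widths were not particular to the windows, since the broadest peaks of the flanks had 1166 bp (STD) and 996 bp (HFD). The broadest of the windows was an STD peak in the upper part of the Hoxd-Evx2 window, toward Hoxd1, chr2:74585636-74586781, of 1146 bp, a width that 0.121% of STD peaks reach. Its HFD partner, chr2:74585690-74586364, was 675 bp wide, which 2.55% of HFD peaks reach. In the Hoxb window the broadest was the STD peak chr11:96205005-96205934, of 930 bp (0.468% of STD peaks). Its HFD partner at chr11:96205322-96205943 had 622 bp (3.90% of HFD peaks). The 930 bp peak was followed with STD by 588 bp at chr11:96152336-96152923 and 519 bp at chr11:96150518-96151036, whose HFD partners were 487 and 682 bp wide. The other broad HFD peak of Hoxb, 658 bp at chr11:96207048-96207705 (2.96% of HFD peaks), had an STD partner of 298 bp. The Hoxc window held no STD peak of 400 bp or more. Its broadest shared peak was 439 bp with HFD at chr15:102849188-102849626 and 336 bp with STD, and the shared STD peak of 337 bp at chr15:102807931-102808267 had an HFD partner of 265 bp. Its remaining shared locus had 297 bp with STD and 281 bp with HFD at chr15:102809217-102809497.

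At 2 loci a broad peak of one list overlapped a pair of peaks of the other. In the Hoxd-Evx2 window the STD peak chr2:74541168-74542031 (864 bp, 0.739% of STD peaks) overlapped HFD peaks of 373 and 300 bp. In the Hoxa13-Evx1 window the HFD peak chr6:52237454-52238295 (842 bp, 0.720% of HFD peaks) overlapped STD peaks of 381 and 473 bp. Beside the 448 bp STD peak without a partner, the next broadest peaks of Hoxd-Evx2 were shared one to one, with 615 bp (STD, chr2:74561277-74561891) against 519 bp (HFD), and 390 bp (STD) against 494 bp (HFD, chr2:74593906-74594399). The remaining shared locus of Hoxa13-Evx1 had 317 bp with STD at chr6:52258074-52258390 and 301 bp with HFD at chr6:52257947-52258247.

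Shared peaks were compared by width where 1 STD and 1 HFD peak were each other's single partner, which gave 19 pairs. The HFD peak was narrower in 12 and wider in 7, with a median difference (HFD minus STD) of -16 bp and quartiles of -84 and 33 bp. Over all 120322 such pairs the median was -8 bp, with quartiles of -49 and 32 bp, which equals the difference between the narrowest peaks of the lists (255 bp with HFD and 263 bp with STD). Midpoints lay a median of 48 bp apart in the windows and 24 bp over all pairs. In 3 of the 19 pairs the widths differed by 300 bp or more, which is so in 1.64% of all pairs and in 17.1% of pairs whose wider peak reaches 600 bp. All 3 were among the 5 pairs with such a wide peak. The differences were -471 bp at the broadest Hoxd-Evx2 peak, -308 bp at the broadest Hoxb peak and 360 bp at the HFD peak of 658 bp, which begins 1.10 kb beyond the HFD peak of 622 bp. At the last 2 loci, neighbours in the Hoxb window, the STD peak was therefore broader at one and narrower at the next. The limits of 300 and 600 bp were chosen after the widths had been seen. Whether a wider peak reflects more methylation cannot be told from these lists, which hold no height.

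**Figure D3:**
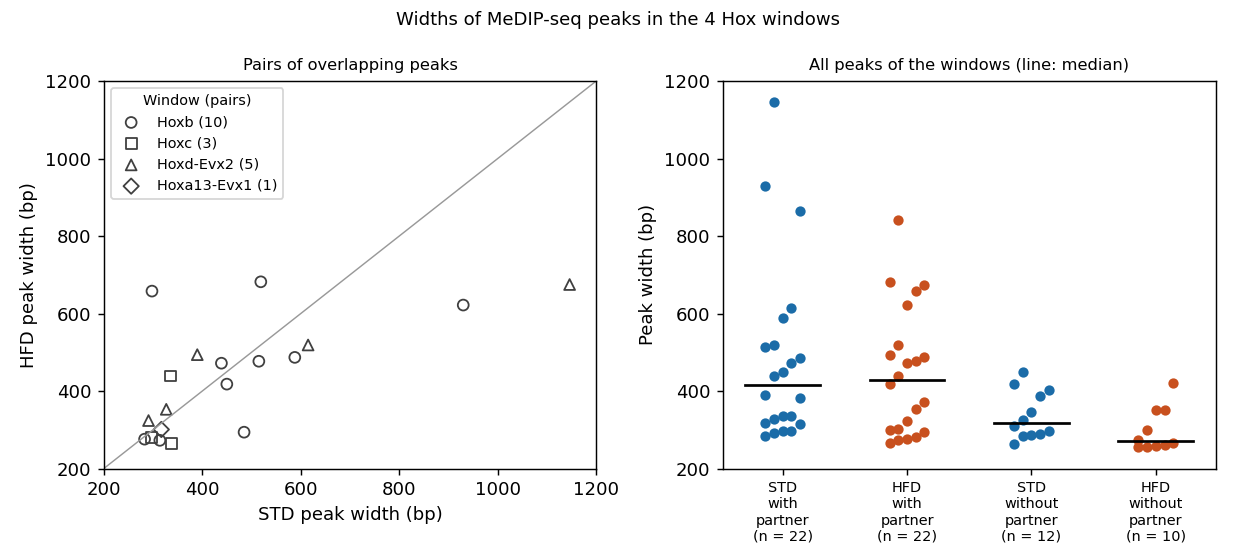
Left, HFD against STD peak width (bp) for the 19 one-to-one pairs, with the line of equal width. Right, width of all 66 peaks of the windows by diet and by presence of a partner, with medians of 414.5, 428.5, 318.5 and 271 bp from left to right.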

How the data were processed

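DNA methylation was profiled by MeDIP-seq in 2 libraries, 1 per diet, grouped by the diet in the labels. BWA, a read aligner, and build mm9 are named in the submitters' processing notes. The peak caller, its threshold, and any input control or pooling of animals were not given in the sources used here. As deposited by the authors, each library has 1 BED list with chromosome, start, end and name, and positions in bp are the only measurement. The number of reads is unknown, and deeper sequencing or stronger enrichment alone can add weak peaks.

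The windows, members and comparisons were chosen with earlier results of these data known. Intervals were computed in scipy 1.17.1 under Python 3.11.15 and figures drawn with matplotlib 3.10.9. The counts in windows and of partners were checked against bedtools 2.31.1. Peaks of the 21 nuclear chromosomes served as background. Densities carry exact Poisson intervals, ratios exact conditional binomial intervals, shares Clopper-Pearson intervals and medians order-statistic intervals. Autosomal stretches of the length of a window were laid end to end between the first and last peak of each chromosome. On 2929 simulated peaks with a density ratio of 0.5 the scripts returned 0.530 (0.484 to 0.580). That list is far larger than the counts here, so it checks the calculation only and not ratios from few peaks. Some simulated flanks overlapped each other, and a run whose interval left out 0.5 would have stopped. By the rule for naming, the text gives the 3 widest peaks per window and list, peaks without a partner (the 3 widest where a window held more than 6 in a list), and the longest empty stretch. The other STD-only peaks of Hoxb, the broad pairs and the loci with several partners were added after their values had been seen. Alternatives were other flanks, partner rules, width filters, window edges, covered bases, and leaving out each window.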

Additional observations from a re-analysis of the deposited data

How the results depend on the processing

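In all, 58 alternative values of 7 results were taken, largely from the same peaks. The counting intervals of the reported values are wide, so staying inside them says little. Of the 58 values, 57 stayed inside the interval of the reported value. The other one was the STD ratio of window to flank density for peaks over 100 bp above the narrowest, which moved from 0.723 to 1.10. Otherwise that ratio ranged from 0.615 to 0.914 with STD and from 0.589 to 0.969 with HFD. Its interval left out 1 in both libraries with flanks of 2 window lengths (0.651 and 0.601), with windows lengthened by 10 kb at each end (0.615 and 0.589) and without the Hoxd-Evx2 window (0.617 and 0.597). The share of peaks with a partner ranged from 55.9% to 75.0% (STD) and from 59.4% to 74.1% (HFD). The ratio of HFD to STD peaks ranged from 0.824 to 1.19 and exceeded 1 only without the Hoxb window. The excess in median width ranged from 30 to 59.5 bp (STD) and from 34.5 to 69.5 bp (HFD), and the excess in mean width was 62.0 and 45.4 bp. No paired analysis was possible because the design has 1 library for each diet. For the same reason none could be omitted. With 3 to 18 peaks per window and library, counting error alone allows wide ratios, and unknown depth limits every statement on a missing peak.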
